A study of Mus musculus with 4 samples.

Results

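Cpxm2 and 5 related carboxypeptidase genes (Cpxm1, Cpe, Cpd, Cpz and Cpa3) were followed in right ventricles of adult mice. They are 6 of 29595 gene rows in the table of reads, matched by gene symbol. Cpxm2 was chosen because its reads differed between the mutant and wild-type hearts, and the others by family, so the differences between the groups are given for all 6 as a description, and a count of calls among them is printed only beside its background. RNA of 2 Ezh2-deficient and 2 wild-type hearts was sequenced. All 4 animals were adults on a mixed C57BL/6 background. Ezh2 is the enzyme subunit of Polycomb repressive complex 2, which marks genes for repression, and the labels state neither the deleted part of Ezh2 nor the cells that lack it. The hearts are called mutant 1, mutant 3, wild type 1 and wild type 2.

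Carboxypeptidases of the M14 family remove amino acids from the C-terminal end of proteins with the help of a zinc ion. Carboxypeptidase E trims basic residues from prohormones in secretory granules, and carboxypeptidase D does so in the trans-Golgi network of most cells. Carboxypeptidase Z is secreted and carries a Wnt-binding frizzled-like domain. The products of Cpxm1 and Cpxm2 carry a discoidin domain, lack residues that catalysis requires and have no known enzyme activity. Their relative Aebp1 encodes an extracellular matrix protein with the same domain. These genes form the M14B subfamily together with Cpm, which encodes a cell surface enzyme, and Cpn1, which encodes the catalytic subunit of a plasma enzyme. Cpa3 belongs to the M14A subfamily of digestive-type enzymes and is a protease of mast cell granules.

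The members lie on 6 different chromosomes, and 6 of 6 are on the minus strand, as are 50.1% of the rows of the table. On mm9, Cpxm2 spans chromosome 7 from 139234499 to 139346422, and its paralog Cpxm1 spans chromosome 2 from 130216511 to 130223310. Cpe lies on chromosome 8 from 67071349 to 67171837, Cpd on chromosome 11 from 76590710 to 76660510, Cpz on chromosome 5 from 35844867 to 35868275 and Cpa3 on chromosome 3 from 20115522 to 20142076. In the GENCODE annotation of GRCm38, Cpxm1 and Cpxm2 both have 14 exons, with coding lengths of 2166 and 2292 bases. The coding lengths of Cpe, Cpz and Cpa3 were 1428, 1962 and 1251 bases, and Cpd, whose protein holds repeated carboxypeptidase domains, reached 4131 bases.

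RefSeq gave a promoter window for 5 of the 6 members, on GRCm38.p6, and Cpe had no entry. The 250 bases before the start are shown for the paralogs Cpxm2 and Cpxm1, whose read counts behaved differently, and for Cpa3 as a tissue-restricted contrast, all on the minus strand and 5′ to 3′, with each CG dinucleotide in capitals.
Cpxm2, chr7:132154742-132154991: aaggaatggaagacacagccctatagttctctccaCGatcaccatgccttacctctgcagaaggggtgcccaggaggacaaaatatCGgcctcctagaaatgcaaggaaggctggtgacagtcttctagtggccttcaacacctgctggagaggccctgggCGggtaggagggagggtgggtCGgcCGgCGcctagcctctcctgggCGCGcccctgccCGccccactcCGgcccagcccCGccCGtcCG
Cpxm1, chr2:130397630-130397879: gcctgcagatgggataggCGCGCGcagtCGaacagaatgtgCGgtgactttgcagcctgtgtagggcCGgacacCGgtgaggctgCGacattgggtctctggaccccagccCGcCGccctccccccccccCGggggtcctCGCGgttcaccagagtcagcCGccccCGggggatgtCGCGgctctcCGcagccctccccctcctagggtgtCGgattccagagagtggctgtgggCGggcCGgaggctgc
Cpa3, chr3:20242182-20242431: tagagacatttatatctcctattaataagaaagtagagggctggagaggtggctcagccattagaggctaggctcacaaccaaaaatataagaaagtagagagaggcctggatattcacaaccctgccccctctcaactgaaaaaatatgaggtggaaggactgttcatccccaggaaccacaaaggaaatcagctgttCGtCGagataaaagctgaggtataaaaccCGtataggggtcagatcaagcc
The CG dinucleotide, which reads the same on both strands, occurred 13 times before Cpxm2, 21 times before Cpxm1 and 3 times before Cpa3. The Cpd and Cpz windows held 14 and 8. Over 32851 promoter windows of that length the median was 6. At least 13 were present in 31.5% of the windows, and at least 21 in 16.3%. The motif TATAAA, searched on both strands, began 31 bases before the start of Cpa3 on the strand of the gene and also matched once farther upstream on the other strand. It had no match in the windows of Cpxm2, Cpxm1, Cpd and Cpz, and 12.4% of all windows held it.

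The libraries held 18177642 to 23853394 reads, of which 34.7 to 47.3% lay in mitochondrial genes. A duplex-specific nuclease had removed part of the abundant transcripts before sequencing, so levels of different genes are not proportional to their RNA. Levels are CPM (reads of a gene scaled to a fixed library total) after TMM scaling, edgeR's correction for library composition. The heart muscle markers Myh6, Tnnt2, Actn2 and Ryr2 summed to 18018 to 21448 CPM in the mutants and 20940 to 21500 CPM in the wild types. For Ezh2 the mutants had 73 and 70 reads and the wild types 77 and 67, which does not check the labels. The Y-linked gene Ddx3y had 754 and 659 reads in mutant hearts against 2 and 2 in wild-type hearts, so sex and genotype cannot be told apart in any comparison between the groups. The design text gives 2 hearts per group and names no litter or batch.

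Cpxm2 had 623 reads in mutant 1, 369 in mutant 3, 103 in wild type 1 and 55 in wild type 2. Its level was 29.1 and 18.7 CPM in the mutants and 4.59 and 2.77 CPM in the wild types. Both mutants lay above both wild types, and the lower mutant stood 4.08 times as high as the higher wild type. The group means were 23.9 ± 7.33 CPM (SD, n = 2) and 3.68 ± 1.29 CPM, a ratio of 6.50. Before TMM scaling, mutant 3, the lower mutant, had 15.5 CPM with a 95% Clopper-Pearson interval of 13.9 to 17.1, and wild type 1, the higher wild type, had 5.13 CPM with an interval of 4.18 to 6.22. Such intervals cover counting error only, since no label names molecular identifiers and PCR copies are not independent molecules.

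**Figure D1:**
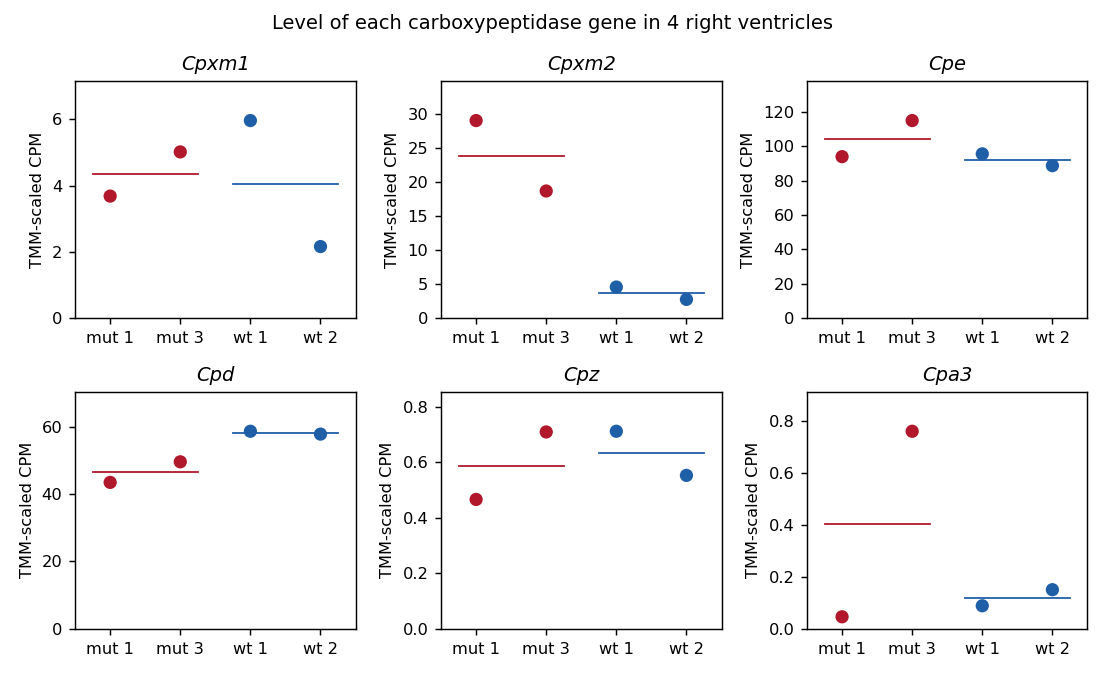
Each panel shows the TMM-scaled CPM of a gene in mutant 1, mutant 3 (red), wild type 1 and wild type 2 (blue), with lines at the group means and a vertical axis that starts at 0. Cpxm2 was at 29.1 and 18.7 CPM in the mutants and at 4.59 and 2.77 CPM in the wild types, and Cpa3 was highest in mutant 3.

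The fitted log2 fold change of Cpxm2, mutant over wild type, was 2.69 ± 0.34 (SE), and 63 of 16128 tested rows had a larger increase. The hearts of a group also differed from each other. Mutant 1 stood 1.55 times as high as mutant 3, and wild type 1 stood 1.66 times as high as wild type 2. Without TMM scaling, in the authors' deposited table, the 4 ratios of a mutant to a wild type were 5.60, 9.49, 3.02 and 5.11. In the authors' deposited table the ratios within the groups were 1.86 for the mutants and 1.69 for the wild types. The smallest ratio across the groups exceeded both ratios within them, but Cpxm2 was chosen because its reads differed between these groups.

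**Figure D2:**
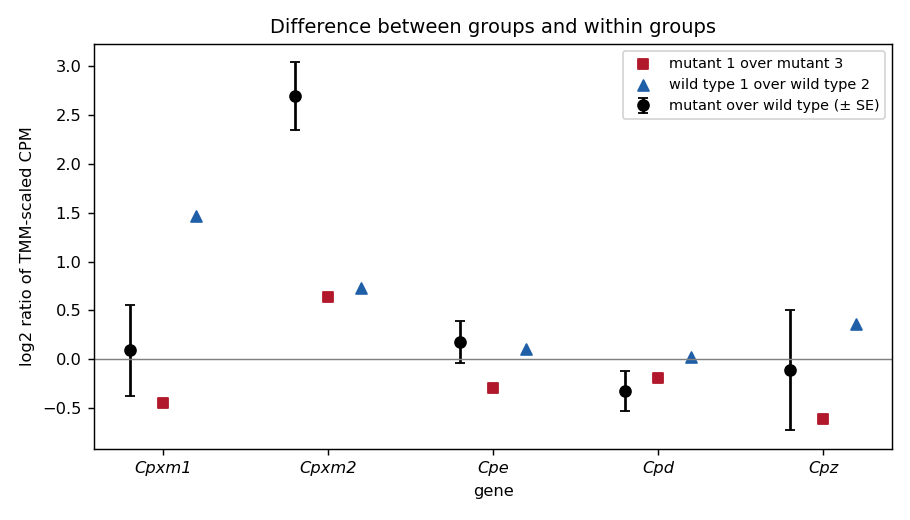
For the 5 genes tested, black points give the log2 fold change of the mutants over the wild types with its SE, red squares the log2 ratio of mutant 1 to mutant 3 and blue triangles that of wild type 1 to wild type 2. The value of Cpxm2 across the groups is 2.69, against 0.64 and 0.73 within them, whereas Cpxm1 has its largest value, 1.46, between the wild types.

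Of the 6 members, 5 passed the filter on low counts, and edgeR's quasi-likelihood test called 1 of these 5 higher at an adjusted p under 0.05, namely Cpxm2, where 0.105% of all tested rows were called higher, 0.0248% lower and 0.13% in either direction. Since Cpxm2 was chosen on this contrast, nothing is read from that count. Both mutants lay above both wild types for 1 of the 5 and below both for 1, and over all tested rows these shares were 22.3% and 22.4%. The median log2 fold change of the 5 was 0.09, beside 0.00 over all tested rows, and the 4 genes other than Cpxm2 ranged from -0.32 to 0.18.

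Cpxm2 made up a different share of the subfamily in each group. Ratios of reads within a library do not depend on scaling. Of the reads of the 8 M14B genes, Cpxm2 held 15.2% in mutant 1 (95% Clopper-Pearson interval 14.1 to 16.3) and 8.94% in mutant 3 (8.09 to 9.85). In wild type 1 it held 2.50% (2.05 to 3.03) and in wild type 2 it held 1.64% (1.24 to 2.13). The mutant shares lay above the wild-type shares. Against Aebp1, the matrix protein gene, Cpxm2 had 1.64 and 1.08 reads per Aebp1 read in mutant hearts and 0.304 and 0.216 in wild-type hearts.

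**Figure D3:**
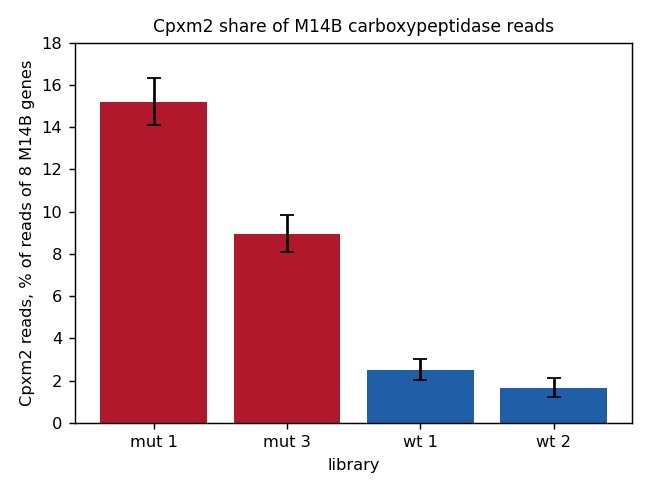
Bars give the reads of Cpxm2 as a percentage of the reads of 8 M14B carboxypeptidase genes in each library, with 95% Clopper-Pearson intervals for counting error. The mutant shares are 15.2% and 8.94%, above the wild-type shares of 2.50% and 1.64%.

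The 7 other M14B genes together were at 162 and 191 CPM in the mutants and at 179 and 166 CPM in the wild types, with groups that overlapped after TMM scaling. With Cpxm2 included, the sum was 191 and 209 CPM in the mutants and 183 and 168 CPM in the wild types. The second sum was higher in both mutants than in both wild types after TMM scaling only. By library totals alone it was 189 and 173 CPM in mutant hearts and 205 and 184 CPM in wild-type hearts, and the groups overlapped. Without Cpxm2, the sum by library totals alone was lower in both mutants than in both wild types. No direction is therefore given for either sum.

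Cpxm1, the paralog of Cpxm2, had 79 and 99 reads in mutant hearts against 134 and 43 in wild-type hearts. Its level was 3.69 and 5.02 CPM in the mutants and 5.97 and 2.16 CPM in the wild types. Both mutants lay between the wild types, and the wild types differed by a factor of 2.76. The log2 fold change of 0.09 ± 0.47 (SE) was 1.01 without wild type 1, -0.46 without wild type 2, -0.09 without mutant 3 and -0.22 by library totals alone, so that no direction is given. Mutant hearts had 7.89 and 3.73 Cpxm2 reads per Cpxm1 read, and wild-type hearts had 0.769 and 1.28.

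Cpe, the prohormone-trimming enzyme gene, was the most abundant member and was close in all hearts. The mutants had 2012 and 2265 reads against 2145 and 1762, or 93.9 and 115 CPM against 95.5 and 88.6 CPM. The groups overlapped after TMM scaling, with a log2 fold change of 0.18 ± 0.21 (SE). Scaled by library totals alone, which moved the median of all rows to -0.28, the value was -0.12 and both mutants lay below both wild types, so that no direction is given.

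Cpd, the Golgi enzyme gene, was lower in both mutants than in both wild types. The mutants had 931 and 977 reads against 1316 and 1148. The level was 43.4 and 49.5 CPM in the mutants and 58.6 and 57.8 CPM in the wild types, with means of 46.5 ± 4.31 CPM (SD, n = 2) and 58.2 ± 0.596 CPM. The log2 fold change was -0.32 ± 0.21 (SE), and -0.62 by library totals alone. Of the M14B reads, Cpd held 22.7% and 23.7% in mutant hearts and 32.0% and 34.3% in wild-type hearts. That total includes Cpxm2, which held 15.2% and 8.94% of it in the mutants. The choice of Cpxm2 thus lowers the mutant share of Cpd, and the gap in shares is partly due to it.

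Cpz, which encodes the frizzled-domain enzyme, was near the limit of detection. The mutants had 10 and 14 reads against 16 and 11, or 0.467 and 0.710 CPM against 0.712 and 0.553 CPM. The groups overlapped, and the log2 fold change of -0.11 ± 0.61 (SE) ranged from -0.40 to 0.20 when single hearts were left out. By library totals alone both mutants lay below both wild types. A difference was not detectable at this depth.

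The order of the members by length-corrected level differed between hearts. Levels were divided by the length of the longest coding transcript, and the nuclease treatment limits such comparisons between genes. Cpe came first in all 4 libraries, at 44.4 and 54.3 CPM per kilobase in mutant hearts and 45.1 and 41.9 in wild-type hearts. Cpd followed in the wild types, with 7.37 and 7.27 CPM per kilobase, ahead of Cpxm1 with 2.52 and 0.914 and Cpxm2 with 1.31 and 0.791. In mutant 1, Cpxm2 stood second, at 8.31 CPM per kilobase against 5.47 for Cpd. In mutant 3, Cpxm2 came after Cpe and Cpd, at 5.35 CPM per kilobase against 6.23 for Cpd. Cpxm2 was above Cpxm1 per kilobase in both mutants and below it in both wild types. In wild type 2 the gap between the paralogs was smaller than the difference of either gene between the wild types.

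Cpa3, the mast cell protease gene, was not tested because its reads were too few. The mutants had 1 and 15 reads against 2 and 3, or 0.0467 and 0.761 CPM against 0.0891 and 0.151 CPM. Mutant 3 alone was high, and mutant 1 lay below both wild types. Before scaling, the 95% interval of mutant 3 was 0.352 to 1.04 CPM, and those of mutant 1, wild type 1 and wild type 2 ended at 0.257, 0.360 and 0.482 CPM.

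Several other mast cell genes were highest in the same heart. Of 10 listed mast cell genes, 9 were detected, and 8 of these had their highest TMM-scaled level in mutant 3, where 20.5% of all tested rows had theirs. By library totals alone, 5 of the 9 did, namely Cma1, Mcpt4, Tpsb2, Hdc and Fcer1a, beside 3.96% of all tested rows. The chymase gene Cma1 had 16 and 39 reads in mutant hearts against 31 and 12 in wild-type hearts. The chymase gene Mcpt4 had 29 and 58 against 36 and 8. In the same order of hearts, the tryptase gene Tpsb2 had 18 and 50 against 28 and 18, and Hdc, which encodes the histamine-forming enzyme, had 15 and 57 against 28 and 14. The tryptase gene Tpsab1 had 0 and 4 reads against 0 and 4. It counted among the 8 through scaling alone, at 0.203 CPM in mutant 3 and 0.201 CPM in wild type 2. Of the IgE receptor genes, Fcer1a had 5 reads in mutant 3 and 0 elsewhere, and Ms4a2 had 0 in all 4 libraries. Tpsab1 and Fcer1a were not tested, so the shares of tested rows do not cover rows of such low counts. A count of 0 allows up to 3 reads, or 0.134 to 0.152 CPM. Mutant 1 was at or below wild type 1 for all of these genes. Cma1 and Mcpt4, and Tpsb2 and Tpsab1, are similar in sequence, and their reads may have been split between the rows.

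Kit, the stem cell factor receptor gene, was lowest in mutant 3, at 3.85 CPM beside 4.15 CPM in mutant 1 and 6.99 and 7.09 CPM in the wild types. Gata2, at 9.85 and 11.9 CPM against 11.4 and 7.55 CPM, and Srgn, at 17.1 and 18.2 CPM against 11.6 and 14.9 CPM, are also expressed by endothelial and other cells. The summed level of the list was 34.7 and 44.8 CPM in the mutants and 35.5 and 32.4 CPM in the wild types. Of its 7 tested genes, 0 passed edgeR's test over all rows, and at an unadjusted p under 0.05 there were 0 higher and 1 lower (Kit), beside 6.49% and 4.38% of all tested rows. In whole tissue, fewer cells of a type and less RNA per cell cannot be told apart.

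**Figure D4:**
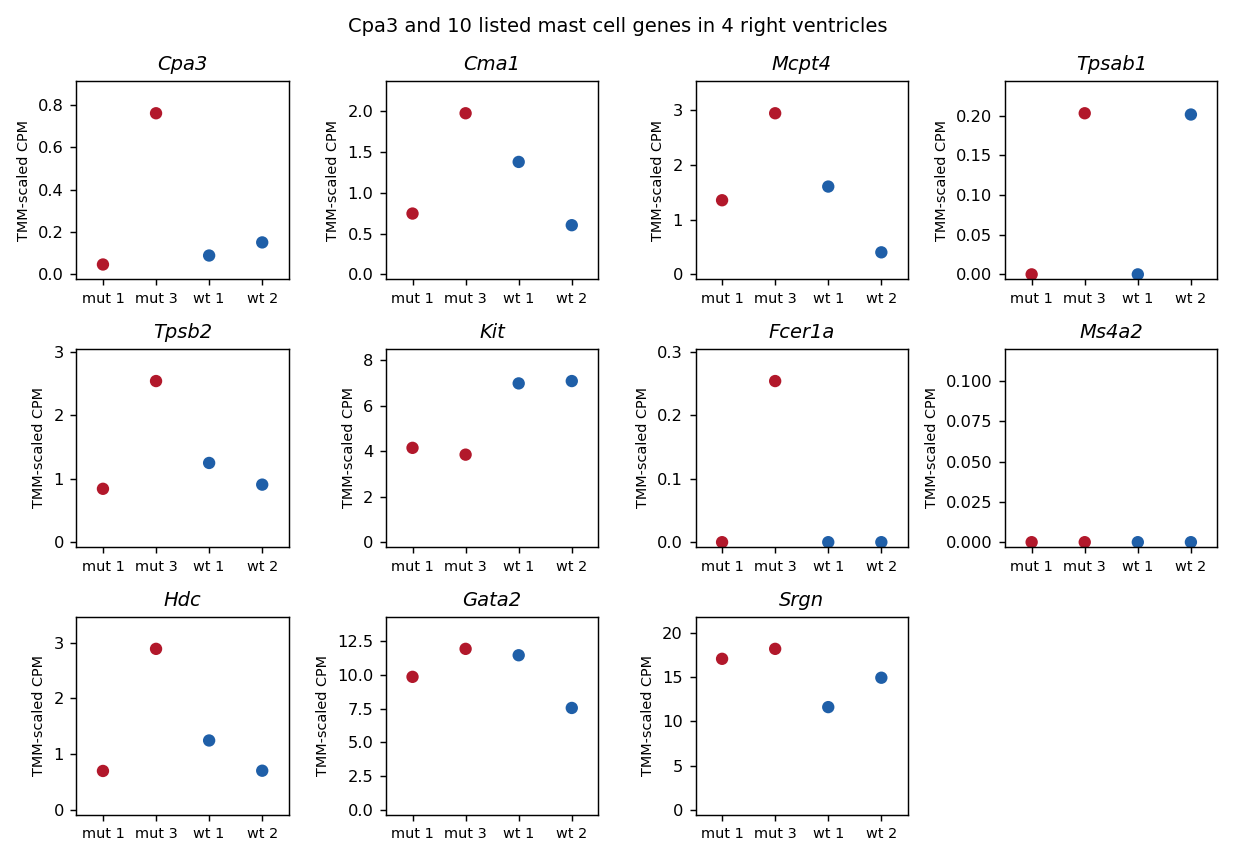
Panels show the TMM-scaled CPM of Cpa3 and of 10 listed mast cell genes in mutant 1, mutant 3 (red), wild type 1 and wild type 2 (blue). Cpa3 is at 0.761 CPM in mutant 3 and between 0.0467 and 0.151 CPM in the other libraries, 8 of the 9 detected listed genes peak in mutant 3 (5 by library totals alone), and Ms4a2 has no read. Tpsab1, counted among the 8, is nearly level in mutant 3 and wild type 2.

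Summed markers of fibroblasts, endothelium, macrophages and heart muscle overlapped between the groups, and those of 4 other lists did not, all after TMM scaling. Fibroblast markers (Pdgfra, Col1a1, Col1a2, Dcn, Lum and Tcf21) summed to 702 and 797 CPM in the mutants and 735 and 617 CPM in the wild types. Both mutants lay above both wild types for 2 of these 6 genes, Dcn and Tcf21, and below both for 0. Dcn was at 416 and 425 CPM against 291 and 279 CPM. The groups overlapped for the rest of the list. There the log2 fold change was -0.45 for Col1a1, -0.23 for Col1a2, -0.01 for Pdgfra and 0.02 for Lum. Of the 4 heart muscle genes, both mutants lay above for 1 (Tnnt2) and below for 2 (Myh6 and Ryr2). Over all tested rows these shares were 22.3% and 22.4%. Endothelial markers summed to 366 and 479 CPM against 488 and 428 CPM, and macrophage markers to 73.6 and 59.0 CPM against 74.1 and 59.6 CPM. Of the 5 macrophage genes, both mutants lay above for 1 (Cd163) and below for 1 (Adgre1), beside those same shares. Cd163 was at 9.05 and 8.06 CPM against 4.72 and 5.79 CPM, and Adgre1 at 7.37 and 5.38 CPM against 9.22 and 7.70 CPM. Smooth muscle and pericyte markers stood at 201 and 227 CPM in the mutants and at 106 and 199 CPM in the wild types, with both mutants above both wild types. Rgs5, a pericyte gene, carried that difference, with 156 and 174 CPM against 61.1 and 151 CPM, and the other 3 genes overlapped in sum, at 44.5 and 53.2 CPM against 45.1 and 48.2 CPM. Epicardial markers stood at 6.63 and 6.59 CPM against 7.39 and 9.26 CPM, with both mutants below. Within that list, the uroplakin gene Upk3b was at 1.73 and 1.77 CPM against 3.52 and 5.23 CPM, whereas Wt1 was at 2.80 and 3.65 CPM against 1.87 and 2.16 CPM. Glial and neuronal markers stood at 6.30 and 6.14 CPM against 6.01 and 5.28 CPM, with both mutants above and Th at 0 reads in all libraries. Adipocyte markers stood at 0.700 and 0.862 CPM against 0.579 and 0 CPM, with both mutants above and Lep at 0 reads in all libraries. The part of these lists in the Cpxm2 difference was not tested.

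Of the genes beside Cpxm2 on chromosome 7, some were silent in all hearts, and the 3 neighbours that were tested were not higher in both mutants than in both wild types. The 3 named rows on each side were taken, outside the rule for named genes. Gpr26, a receptor gene 57.2 kb away, had 0 reads in all libraries, as had the homeobox gene Nkx1-2, and the homeobox gene Hmx2 had 1 read in all. Row 4631426J05Rik, 81.5 kb away, was at 9.71 and 8.32 CPM in the mutants and 11.8 and 10.3 CPM in the wild types. The mitotic checkpoint gene Bub3 was at 16.3 and 13.7 CPM against 19.0 and 13.6 CPM, and Oat, which encodes ornithine aminotransferase, at 95.6 and 85.4 CPM against 124 and 90.0 CPM. The adjusted p of these 3 rows in edgeR's test were 0.697, 0.896 and 0.741. Row AK042514, on the opposite strand over the start of Cpxm2 (569 bases inside the gene and 562 beyond it), had 5 and 4 reads in mutant hearts against 1 and 2. No label states that counting used strand, so a few reads could be shared between these rows.

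The rows nearest to Cpxm2 in pattern were picked for sharing its difference between the groups, so that difference is no separate result. Among 10835 autosomal named rows with a mean of at least 1 CPM, the distance was the Euclidean distance of log2 CPM, centred on the mean of each gene, over the 4 libraries. Myot, the myotilin gene of the sarcomeric Z-disc, came first at a distance of 0.46, with 66.2 and 63.2 CPM in the mutants and 10.6 and 6.99 CPM in the wild types. Mmp3, a matrix metalloproteinase gene, and Edn3, which encodes endothelin 3, both stood at 0.47. Mmp3 had 44 and 31 reads against 8 and 6, and Edn3 had 53 and 49 reads against 12 and 6. Their means were 1.81 and 2.48 CPM in the mutants and 0.33 and 0.42 CPM in the wild types. Both genes therefore passed the filter of 1 CPM only through the mutants. The serine protease inhibitor gene Serpina3n stood at 0.53, with 15.3 and 6.49 CPM in the mutants against 1.69 and 0.906 CPM. The slow troponin gene Tnnt1 stood at 0.58, with 84.7 and 44.1 CPM against 13.3 and 11.4 CPM. With 4 libraries, many rows share such a pattern.

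The other carboxypeptidase and prohormone genes did not pass the test. Over 6 lists with 38 genes, 22 were tested and 0 were called higher or lower by edgeR at an adjusted p under 0.05, while at an unadjusted p under 0.05 there were 2 higher and 4 lower, and DESeq2 called 0 and 0. At that unadjusted p, 6.49% of all tested rows were higher and 4.38% lower. The median log2 fold change of the 22 was -0.15, beside 0.00 over all tested rows. Both mutants lay above both wild types for 5 of the 22 and below both for 9, beside 22.3% and 22.4% of all tested rows.

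Of the remaining M14B genes, Aebp1 was at 17.7 and 17.4 CPM in the mutants and 15.1 and 12.8 CPM in wild-type hearts (log2 fold change 0.33 ± 0.22 SE, edgeR adjusted p = 0.625). Cpm was at 2.89 and 2.99 CPM against 2.63 and 3.62 CPM (edgeR adjusted p = 0.947), and Cpn1 had 1 to 3 reads a library. The 7 other M14A genes, which include pancreatic enzymes, had 0 to 5 reads a library, and 0 of them were tested. Among the M14C genes, whose cytosolic enzymes shorten glutamate chains of tubulin, 4 of 6 were tested. Agtpbp1 was at 35.8 and 37.0 CPM in the mutants and 59.3 and 66.1 CPM in the wild types, with groups that did not overlap (log2 fold change -0.78 ± 0.21 SE, edgeR adjusted p = 0.250). Agbl5 was at 17.5 and 19.6 CPM against 12.9 and 15.2 CPM (edgeR adjusted p = 0.558).

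Carboxypeptidases of other families included Ace, the angiotensin-converting enzyme gene, at 60.5 and 46.3 CPM in the mutants and 36.4 and 20.1 CPM in the wild types. Its log2 fold change of 0.92 ± 0.31 (SE) had an edgeR adjusted p of 0.354, and both mutants exceeded both wild types. Prcp, which encodes a lysosomal carboxypeptidase, was at 10.1 and 14.1 CPM against 15.5 and 15.2 CPM (edgeR adjusted p = 0.659). Lxn, which encodes the carboxypeptidase inhibitor latexin, was at 3.73 and 5.63 CPM in the mutants and 4.85 and 4.73 CPM in the wild types. Cpn2, the regulatory subunit of the plasma enzyme, was at 2.38 and 1.32 CPM against 5.12 and 6.14 CPM. Its log2 fold change of -1.60 ± 0.37 (SE) had an edgeR adjusted p of 0.203, and the groups did not overlap. By library totals alone edgeR's adjusted p was 0.0171. That scaling moved the median of all rows to -0.28, and 80 rows were called lower, against 4 in the main fit.

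Of the 12 prohormone processing genes, 8 were tested. Corin, the gene of the protease that cleaves the atrial natriuretic peptide precursor, was at 61.6 and 44.9 CPM in the mutants and 86.5 and 91.7 CPM in wild-type hearts (log2 fold change -0.74 ± 0.23 SE, edgeR adjusted p = 0.326). Pcsk6, a proprotein convertase gene, was at 30.5 and 29.4 CPM against 55.8 and 36.1 CPM (-0.62 ± 0.26 SE, edgeR adjusted p = 0.443). Both mutants lay below both wild types in both genes. Pcsk1 and Pcsk2, the convertases that act before carboxypeptidase E in endocrine granules, had 0 to 5 reads a library and were not tested. Without wild type 1, edgeR called 2 of the listed genes higher and 3 lower, where 7.87% and 4.33% of 16772 tested rows were called higher and lower. Without wild type 2 it called 1 higher and 5 lower, where 13.2% and 8.83% of 16700 tested rows were called. Agtpbp1, Ace, Cpn2 and Corin were among them both times, with adjusted p of 0.000162 to 0.0401, and the wild-type group then rested on a single heart.

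The difference of Cpxm2 varied little in size with the processing. Over 11 alternatives its log2 fold change ranged from 2.38 to 3.11. The call was less stable, with an edgeR adjusted p of 0.0463 in the main fit. It was lost in limma-voom (adjusted p = 0.0527) and in edgeR with relative log expression scaling (adjusted p = 0.0599). It was also lost in edgeR with a filter of at least 1 CPM in 2 libraries (adjusted p = 0.0575). Without sex-linked, mitochondrial and abundant rows, edgeR's adjusted p was 0.110.

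**Figure D5:**
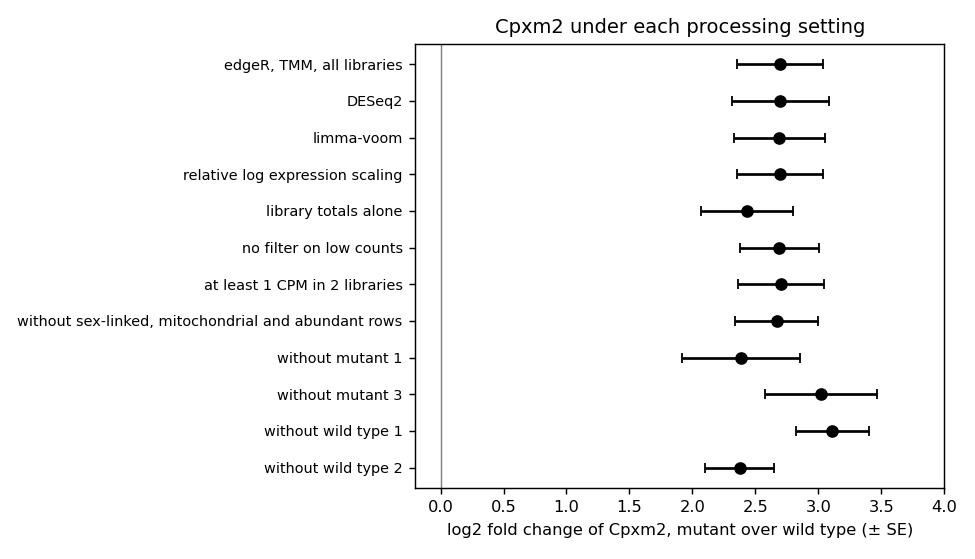
Points give the log2 fold change of Cpxm2, mutant over wild type, under each of 12 settings, with bars for 1 SE. The values range from 2.38 to 3.11, with the lowest when wild type 2 or mutant 1 is left out and the highest when wild type 1 is left out.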

How the data were processed

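RNA of 4 right ventricles was sequenced from polyadenylated RNA after digestion with a duplex-specific nuclease, per the labels' protocols. TopHat 1.2.0, Cufflinks and mm9 appear per the submitters' processing notes. How rows were counted, and with which annotation or strand rule, was not given in the sources used here. Raw read counts per gene row, as deposited, were the input. The authors' CPM equals reads over the library total, per the file headers and a check against the counts. The authors' ratios between pairs of libraries were copied for Cpxm2, and the authors' p-value of each pair was not used. Start positions are printed counted from 1.

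The test of the counts was that of edgeR 4.0.16 (R 4.3.3), glmQLFit and glmQLFTest, after filterByExpr (16128 of 29595 rows) and TMM scaling, on all 4 libraries with no covariate, two-sided, with Benjamini-Hochberg adjustment over all tested rows and a threshold of 0.05. SD has n = 2. The SE came from the quasi-likelihood F statistic. The fit was also run on simulated counts. Only genes of higher level were changed there, so the simulation does not cover changes in rows of low count. The members and lists were chosen with earlier results of these data known. Named genes were the members, the 2 listed genes of smallest p per list where none was called, the detected mast cell genes and the 5 rows nearest to Cpxm2. Genes named beyond these were chosen after their values were seen. Of the list genes, 4 were found under an older symbol. Alternatives were DESeq2 1.42.0, limma-voom (limma 3.58.1), other scalings and filters, fewer rows and leaving out each library. A planned comparison of protein sequences was not run, because no protein table was used here.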

Additional observations from a re-analysis of the deposited data

How the results depend on the processing

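No paired analysis was possible because no label pairs a mutant heart with a wild-type heart. Over 11 alternatives (10 for Cpz, which the stricter filter removed), the log2 fold change of Cpxm2 shifted by less than its log2 ratios between replicates. By library totals alone the median log2 fold change of all rows was -0.28, and the log2 fold change was -0.12 for Cpe and -0.62 for Cpd. Leaving out single libraries gave -0.46 to 1.01 for Cpxm1, 0.066 to 0.36 for Cpe and -0.38 to -0.20 for Cpd. The log2 ratio of mutant 1 to mutant 3 by library totals was 0.89 for Cpxm2, -0.035 for Cpe and 0.066 for Cpd. Rows called higher and lower were 17 and 4, against 175 and 52 by DESeq2, 11 and 3 by limma-voom, 14 and 2 with relative log expression scaling, 76 and 80 by library totals, 249 and 68 with no filter, 15 and 2 with the stricter filter and 2 and 1 without sex-linked, mitochondrial and abundant rows. Without single libraries the counts were 55 to 2200 higher and 8 to 1475 lower, highest without wild type 2 (2200 and 1475) and wild type 1 (1320 and 726). In the 6 lists, 1 gene was called lower by library totals and 1 with no filter, namely Cpn2 in both (edgeR adjusted p = 0.0171 and 0.0185). Without single libraries 0 to 2 were called higher and 0 to 5 lower. Cpm turned to 0.16 without wild type 2 (range -0.30 to 0.16) and Lxn to 0.27 without mutant 1 (range -0.32 to 0.27). Where 1 library of a group remained, its variation was taken to equal that of the opposite group. The share of Cpxm2 among the 6 members was 17.0% and 9.87% in the mutants. The 5 rows nearest to Cpxm2 were the same 5 by library totals; this alternative, the share of the 6 members and the library-total values of the mast cell and M14B levels were chosen after seeing the data. The cause of these shifts was not tested. Depth limits Cpz and Cpa3, and the protein comparison and its alternative were not run.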

Other observations

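The row of Cpn2, the regulatory subunit of the plasma carboxypeptidase, lies next to that of Lrrc15, a gene of a leucine-rich repeat membrane protein, on chromosome 16 and the same strand, with 1771 bases between them on mm9. Lrrc15 had 166 and 151 reads in mutant hearts against 637 and 478 in wild-type hearts (log2 fold change -1.77 ± 0.23 SE, edgeR adjusted p = 0.0463), and Cpn2 had 51 and 26 reads against 115 and 122 (-1.60 ± 0.37 SE, edgeR adjusted p = 0.203). Both mutants lay below both wild types in both rows. The pair was chosen after its values were seen, and whether the rows share reads was not tested.

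Pam, which encodes the enzyme that amidates peptide hormones after carboxypeptidase trimming, was the prohormone processing gene with a value above 0 at an unadjusted p under 0.05. Its level was 439 ± 45.9 CPM (SD, n = 2) in the mutants and 301 ± 31.1 CPM in the wild types, and edgeR's adjusted p was 0.443. It was named after its values were seen.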
